A study of Mus musculus with 40 samples.

Results

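The miR-181 family consists of the 4 mature microRNAs mmu-miR-181a-5p, mmu-miR-181b-5p, mmu-miR-181c-5p and mmu-miR-181d-5p (written without the prefix from here on), which were taken by name from the 1915 microRNAs of a count table of mouse blood. All 4 had reads in each of the 40 libraries and passed the filter of more than 100 reads in 50% of them, together with 101 other microRNAs. Total blood was collected from the retro-orbital sinus of ageing wild-type mice and small RNA was sequenced. There were 10 libraries at each of 4 ages, 12, 13.5, 15 and 16.5 months. The mice were single-housed males, written C57B/6J, with no transgene and no drug under study at any age. Bleeding was done under isoflurane. They were bled first before behavioural testing and then after each round of a water maze. The study also kept a separate group of untrained home cage mice, and the labels do not tell whether any library came from that group.

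A microRNA guides the silencing complex to messenger RNAs that pair with its seed, a short stretch near its 5′ end, so that members with the same seed share most of their predicted targets. miR-181 microRNAs are best known from the immune system, where miR-181a tunes the strength of T cell receptor signalling in the thymus, and they are also present in neurons and in blood-forming cells. The study followed miR-181a-5p as part of a blood signature of memory performance that was chosen partly on these libraries, so its change over age is not independent evidence of that choice.

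The mature sequences from RefSeq (GRCm38.p6) are printed 5′ to 3′ because they show what the members share and where they part, with the seed (bases 2 to 8) in capitals.
miR-181a-5p: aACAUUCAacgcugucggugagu
miR-181b-5p: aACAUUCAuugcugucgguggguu
miR-181c-5p: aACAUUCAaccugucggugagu
miR-181d-5p: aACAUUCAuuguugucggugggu
The first 8 bases were identical in all 4. Among 1679 mature mouse microRNAs of RefSeq only these 4 carried this seed. Counted from the 5′ end, miR-181b-5p differed from miR-181a-5p by A9U, C10U and A21G and by 1 further base at its 3′ end. miR-181d-5p differed from miR-181b-5p by C12U over the 23 bases they share. miR-181c-5p, with 22 bases, was closest to miR-181a-5p, with 23, at an edit distance of 1. Reads were mapped to microRNA precursors without mismatches, so a read that covers these positions belongs to 1 member.

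The members come from 6 hairpins in 3 pairs (mm10, which is GRCm38). Mir181a-1 (chromosome 1, 137966455 to 137966541, plus strand) lies 97 bases from Mir181b-1 (137966639 to 137966718), and both overlap an exon of the long non-coding RNA A430106G13Rik on the same strand. Mir181a-2 (chromosome 2, 38852735 to 38852810, plus strand) lies 1019 bases from Mir181b-2 (38853830 to 38853918), antisense to an intron of Nr6a1, a nuclear receptor gene. Mir181c (chromosome 8, 84178873 to 84178961, minus strand) and Mir181d (84178716 to 84178787) lie 85 bases apart in an intron of Nanos3, a germ cell gene read from the same strand. miR-181a-5p and miR-181b-5p each have 2 hairpins with the same mature sequence, so their counts sum both loci. Whether a read that fits both loci was counted once or at each is not stated. The size of ratios and shares between members therefore carries that doubt.

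The libraries held 2469196 to 21386209 counts, most of them from the red cell microRNA miR-486, whose reads stand in duplicate rows. Outside the 4 miR-486 rows there were 93002 to 1739959 counts, with medians of 855062 at 12, 698499 at 13.5, 267135 at 15 and 597338 at 16.5 months, so the 15-month values rest on the fewest reads. Column names took other forms at 13.5 and at 15 months than at the other 2 ages, so whether libraries were made in separate series, and age, cannot be told apart there. Mice were bled first at 12 months, before the maze, and later after each round of it. Age, maze training and earlier bleeding therefore cannot be told apart in comparisons with 12 months. The study bled the same animals repeatedly, and the column names open with 10 numbers that each occur at all 4 ages. The labels do not say what these numbers are, so whether each is an animal is not known here, and the tests treated the libraries as independent. Blood was sequenced in bulk, so fewer cells of a type and less RNA per cell cannot be told apart.

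miR-181a-5p, miR-181b-5p and miR-181d-5p differed between ages, with their highest mean at 13.5 months, whereas miR-181c-5p did not pass the test. Over the 4 ages, 3 of the 4 members passed an adjusted p of 0.05 in edgeR's quasi-likelihood test, against 61% of the 105 microRNAs tested. By size of p, miR-181a-5p was number 2 in order (adjusted p = 1.43e-09), miR-181b-5p number 6 (adjusted p = 2.42e-07) and miR-181d-5p number 21 (adjusted p = 1.69e-05). miR-181c-5p was number 103 (adjusted p = 0.687), near the end of the order.

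Levels are log2 CPM (reads of a row scaled to the library total) with TMM scaling factors. By mean level over the 40 libraries miR-181a-5p was number 38 of those tested, miR-181c-5p number 69, miR-181b-5p number 74 and miR-181d-5p number 93.

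miR-181a-5p, the most abundant member, lay between 6.25 and 7.13 log2 CPM at 12 months (median 6.66) and between 7.19 and 8.74 at 13.5 months (median 7.79). The 2 ages did not overlap in this member, as in 2.86% of all microRNAs tested. Its level lay between 6.31 and 7.38 at 15 months (median 6.56) and between 6.51 and 7.32 at 16.5 months (median 6.94). Thus 9 of the 10 libraries of each later age fell below the lowest of 13.5 months. Per 100000 counts outside miR-486, a scale without TMM factors, the member took 139 to 285 counts (median 167) at 12 months and 270.4 to 774 (median 422) at 13.5 months. On that scale the 2 ages just met.

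miR-181b-5p, which shares its hairpin clusters with miR-181a-5p, lay between 3.57 and 4.47 log2 CPM at 12 months (median 4.25) and between 4.29 and 5.73 at 13.5 months (median 5.09). In 9 of 10 libraries of 13.5 months it exceeded the highest of 12 months. It lay between 3.67 and 4.88 at 15 months (median 3.84) and between 4.45 and 4.97 at 16.5 months (median 4.66). The SD at 16.5 months was 0.15 log2, against 0.29 to 0.43 at the other ages.

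miR-181d-5p was the least abundant member. It lay between 3.08 and 3.73 log2 CPM at 12 months (median 3.39) and between 3.32 and 4.45 at 13.5 months (median 4.03), where 9 of 10 libraries exceeded the highest of 12 months. That library apart, the 2 ages did not overlap. It lay between 2.78 and 4.22 at 15 months (median 3.17) and between 2.90 and 3.94 at 16.5 months (median 3.65). The highest 15-month library thus stood above the highest of 16.5 months, although the median was lower. Its raw counts were small at 15 months, from 19 to 68.

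miR-181c-5p comes from the same intron as miR-181d-5p and kept another course. It lay between 4.49 and 5.60 log2 CPM at 12 months (median 4.92) and between 4.36 and 5.77 at 13.5 months (median 4.75). It lay between 3.84 and 5.39 at 15 months (median 4.83) and between 3.15 and 5.56 at 16.5 months (median 4.66). All ages overlapped widely. Its means in order of age were 4.98, 4.89, 4.75 and 4.59 and the SDs 0.42, 0.44, 0.55 and 0.74, so that any 2 means differed by less than the SD at 15 months.

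**Figure D1:**
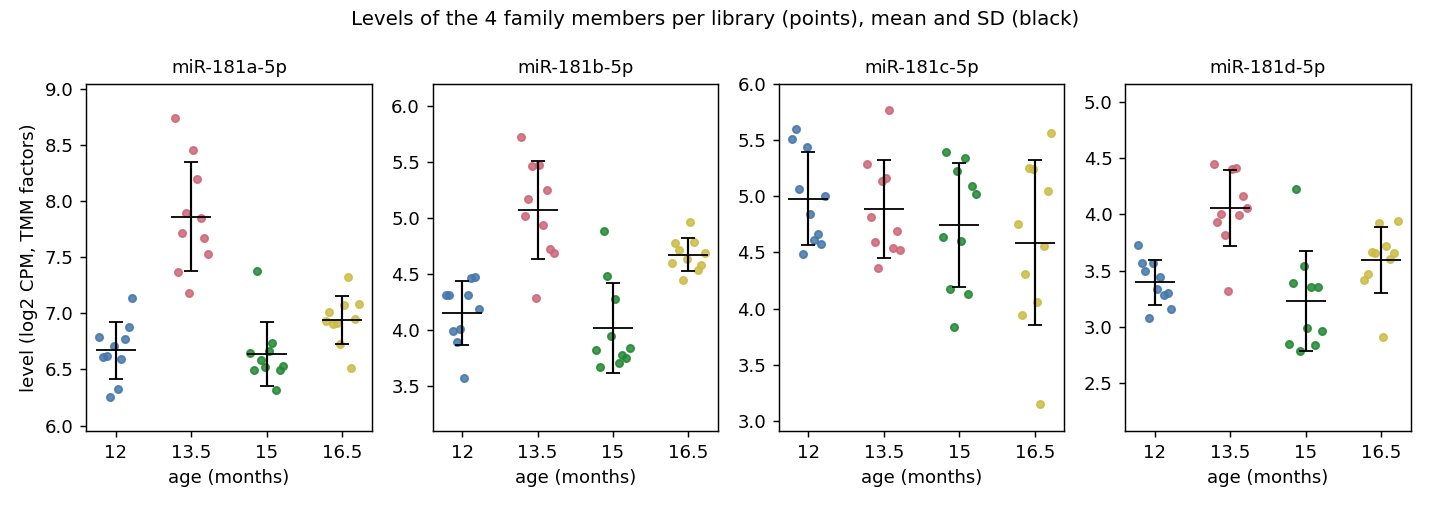
Level of each member (log2 CPM, TMM factors) against age in months, with 1 point per library (n = 10 per age), the mean as a black bar and the SD as whiskers. The panels span the same number of log2 units at different levels. The 10 points of miR-181a-5p at 13.5 months sit between 7.19 and 8.74, all above the 12-month points, whereas the ages of miR-181c-5p overlap.

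Between 12 and 13.5 months, 3 of the 4 members rose, against 15.2% of all microRNAs tested that were called higher in this contrast. In edgeR's quasi-likelihood test the log2 fold change was 1.25 for miR-181a-5p (SE 0.15, adjusted p = 2.22e-08), 0.96 for miR-181b-5p (SE 0.15, adjusted p = 3.2e-06) and 0.69 for miR-181d-5p (SE 0.14, adjusted p = 0.000131). Nearly all libraries shared the direction, with 10 of 10 for miR-181a-5p and miR-181b-5p and 9 of 10 for miR-181d-5p above the 12-month mean. miR-181c-5p gave -0.087 (SE 0.23, adjusted p = 0.823), a value that turned positive, at 0.10 to 0.13, once 1 to 3 factors of unwanted variation were modelled. The rise of miR-181a-5p and miR-181b-5p kept its call in every other setting, at 1.09 to 1.29 and 0.84 to 1.12 log2. With library totals alone, miR-181d-5p gave 0.68 (adjusted p = 0.0636).

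From 13.5 to 15 months the same 3 members fell, against 30.5% of the microRNAs tested that were called lower. The log2 fold change was -1.28 for miR-181a-5p (SE 0.15, adjusted p = 2.77e-08), -1.09 for miR-181b-5p (SE 0.16, adjusted p = 3.78e-07) and -0.84 for miR-181d-5p (SE 0.15, adjusted p = 1.15e-05) in edgeR's quasi-likelihood test. The fall was therefore about as large as the rise before it for each of the 3. miR-181c-5p gave -0.10 (SE 0.23, adjusted p = 0.714) and 0.024 with median-ratio factors. With library totals alone it gave -0.83 (adjusted p = 0.0486), where the median of all microRNAs was -0.81. The rise and the fall share the 13.5-month libraries and are not independent of each other.

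At 15 months none of the 4 members differed from 12 months in edgeR's quasi-likelihood test, where 23.8% of the microRNAs tested did. The log2 fold changes were -0.027 for miR-181a-5p, -0.13 for miR-181b-5p, -0.19 for miR-181c-5p and -0.15 for miR-181d-5p, with adjusted p between 0.483 and 0.903. None of the 4 had an unadjusted p under 0.05, and DESeq2 called 0 as well. The sign for miR-181a-5p turned to 0.026 with median-ratio factors. With library totals alone all 4 were called lower, by -0.85 to -0.99 log2, a scale on which the median of all 105 microRNAs also stood at -0.84 and 84 of the 105 (80%) were called in either direction.

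At 16.5 months miR-181b-5p was the member that stood apart from 12 months, at 0.50 log2 (SE 0.15, adjusted p = 0.015), and 13.3% of the microRNAs tested were called higher. In 9 of 10 libraries it lay above the highest of 12 months. The other members gave 0.27 for miR-181a-5p (SE 0.15, adjusted p = 0.189), 0.23 for miR-181d-5p (SE 0.14, adjusted p = 0.241) and -0.27 for miR-181c-5p (SE 0.23, adjusted p = 0.398). The call for miR-181b-5p was lost with library totals alone (0.30, adjusted p = 0.333, the median of all microRNAs being -0.25) and without a filter on low counts (0.43, adjusted p = 0.156).

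From 15 to 16.5 months miR-181b-5p rose again, by 0.63 log2 (SE 0.16, adjusted p = 0.0021, 10 of 10 libraries above the 15-month mean), and 19% of the microRNAs tested were called higher. miR-181d-5p missed the threshold at 0.37 (SE 0.15, adjusted p = 0.055), as did miR-181a-5p at 0.29 (SE 0.15, adjusted p = 0.141). Both values depended on 1 library of 15 months with 114748 counts outside miR-486, which held the highest level of each at that age. Without it they were 0.49 (adjusted p = 0.00492) and 0.40 (adjusted p = 0.0325). miR-181d-5p also passed without any 1 of 3 other libraries (0.34 to 0.43, adjusted p 0.0239 to 0.0478), and in DESeq2 (0.35, adjusted p = 0.0293) and limma voom (0.44, adjusted p = 0.00284). miR-181c-5p gave -0.077 (SE 0.23, adjusted p = 0.849), a sign that flipped to 0.54 with library totals alone, where the median of all microRNAs was 0.65, and to 0.011 without the shallowest library.

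Compared with 13.5 months, the level at 16.5 months was lower by 0.98 log2 for miR-181a-5p (log2 fold change -0.98, SE 0.15, adjusted p = 1.31e-06). The values were -0.47 for miR-181d-5p (SE 0.14, adjusted p = 0.00686) and -0.46 for miR-181b-5p (SE 0.15, adjusted p = 0.0121), so 3 of 4 members were called, against 21.9% of all tested that were called lower. The call for miR-181b-5p was lost when any 1 of 3 libraries of 13.5 months was left out (-0.33 to -0.35, adjusted p 0.0522 to 0.0632) and without a filter on low counts (-0.48, adjusted p = 0.0591). That for miR-181d-5p was lost without a filter (-0.47, adjusted p = 0.11), with library totals alone (-0.62, adjusted p = 0.0555) and with 3 factors of unwanted variation (-0.30, adjusted p = 0.09). miR-181c-5p gave -0.18 (SE 0.23, adjusted p = 0.557) and passed only with 2 such factors (-0.29, adjusted p = 0.047).

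**Figure D2:**
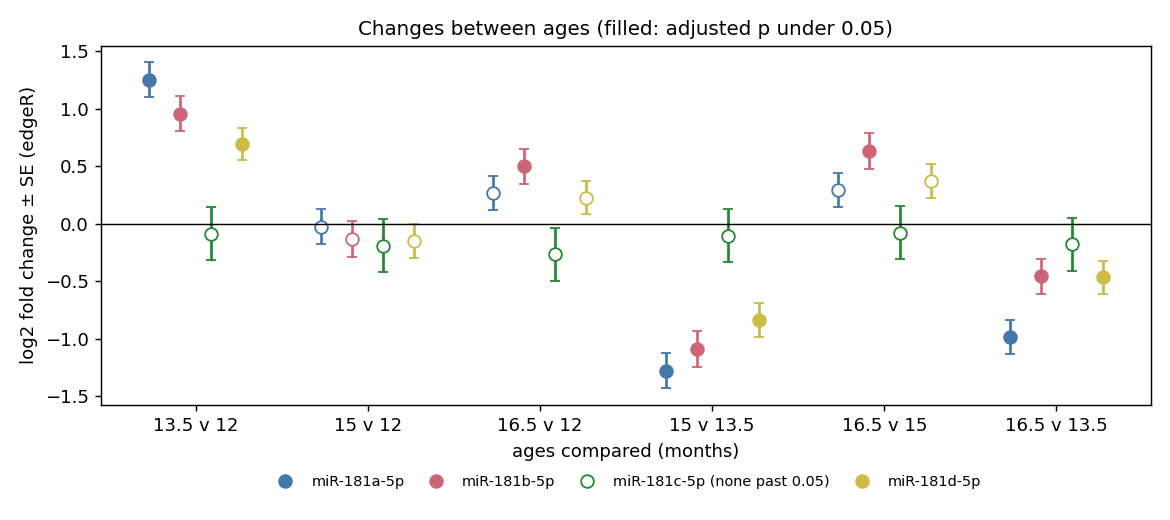
Log2 fold change of each member between 2 ages (points, edgeR) with its standard error (whiskers), for the 6 pairs of ages in months. Filled points have an adjusted p under 0.05. All 6 points of miR-181c-5p are open, and the values of miR-181a-5p range from -1.28 to 1.25.

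The fit by microRNA does not compare the members with each other, so their log2 ratios within a library were tested by permutation. A ratio of 2 rows in 1 library does not depend on any scaling factor. Of 30 comparisons (5 ratios by 6 pairs of ages), 11 passed an adjusted p of 0.05. Here and below, libraries counted beside a difference are those of the later age beyond the mean of the earlier age.

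The balance between miR-181c-5p and miR-181a-5p moved most at 13.5 months. The median number of miR-181a-5p reads per read of miR-181c-5p was 3.19 at 12 months, 8.43 at 13.5, 3.44 at 15 and 4.22 at 16.5 months. It ranged from 2.01 to 4.96 at 12 months and from 4.15 to 11.7 at 13.5 months, so the ages overlapped only slightly. The log2 ratio of miR-181c-5p to miR-181a-5p was lower at 13.5 than at 12 months by 1.29 (difference -1.29, permutation test, adjusted p = 0.0018, 10 of 10 libraries) and 1.09 higher at 15 than at 13.5 months (permutation test, adjusted p = 0.00924, 9 of 10 libraries).

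The neighbours of 1 intron parted as well. The log2 ratio of miR-181c-5p to miR-181d-5p averaged 1.60 ± 0.29 (SD, n = 10) at 12 months, 0.84 ± 0.44 at 13.5, 1.53 ± 0.64 at 15 and 1.001 ± 0.67 at 16.5 months. The difference between 13.5 and 12 months was -0.76 (permutation test, adjusted p = 0.0078), and 9 of 10 libraries lay below the 12-month mean. The differences at 16.5 v 12 months (-0.60, permutation test, adjusted p = 0.0286) and at 15 v 13.5 months (0.69, adjusted p = 0.0393) were less firm. The former lost its call when medians were compared (-0.31, adjusted p = 0.114), and the latter did so when 1 of 14 of the 20 libraries was left out (0.63 to 0.69).

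miR-181d-5p rose less than miR-181a-5p. Their log2 ratio averaged -3.29 ± 0.31 at 12 months, -3.82 ± 0.28 at 13.5, -3.42 ± 0.30 at 15 and -3.36 ± 0.38 at 16.5 months (SD, n = 10). It was thus lower at 13.5 months than at 12 (difference -0.53, permutation test, adjusted p = 0.00924), and higher at 15 than at 13.5 (0.40, adjusted p = 0.0284) and at 16.5 than at 13.5 months (0.46, adjusted p = 0.0284). In none of the 6 pairs of ages did the ratio of miR-181d-5p to miR-181b-5p pass the threshold, with differences from -0.32 to 0.23 and adjusted p of at least 0.119.

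miR-181b-5p gained on miR-181a-5p at 16.5 months. Reads of miR-181a-5p per read of miR-181b-5p had a median of 5.46 at 12, 7.35 at 13.5, 6.21 at 15 and 4.88 at 16.5 months. The log2 ratio of miR-181b-5p to miR-181a-5p was higher at 16.5 months than at 13.5 by 0.52 (permutation test, adjusted p = 0.0039), than at 15 by 0.35 (adjusted p = 0.0162) and than at 12 by 0.25 (adjusted p = 0.0409). Each time 10 of 10 libraries of 16.5 months lay above the mean of the other age, although the ages overlapped. The comparison with 12 months was the least firm, since leaving out 1 of 10 of the 20 libraries raised its adjusted p to at most 0.075. At 13.5 v 12 months the difference of -0.27 did not pass (permutation test, adjusted p = 0.0861).

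**Figure D3:**
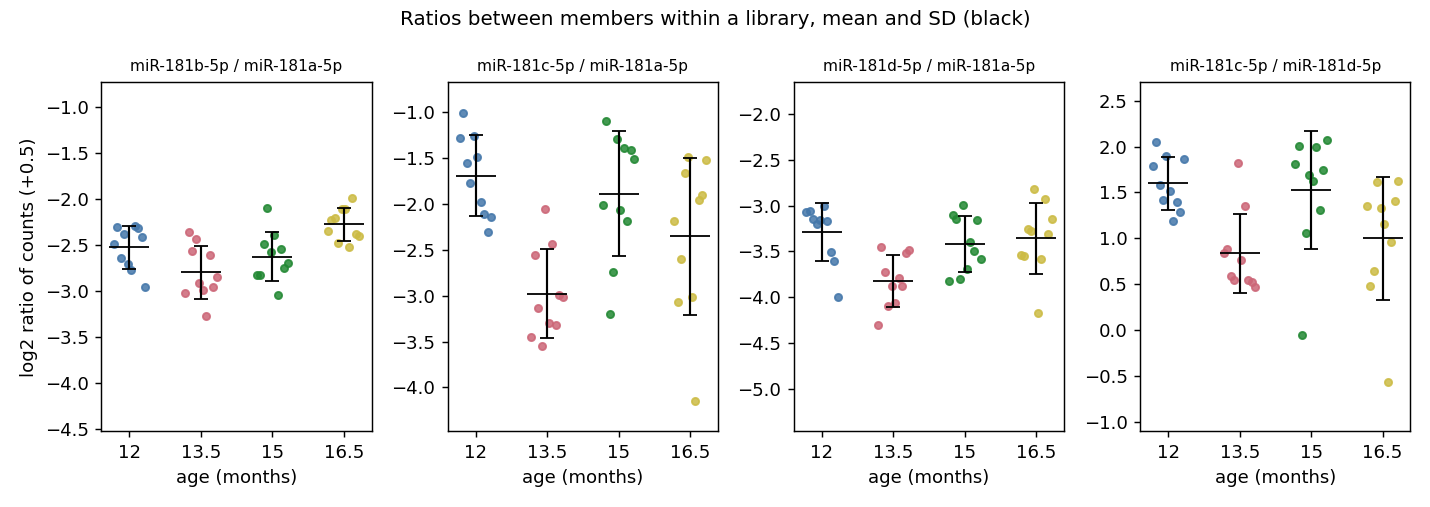
Log2 ratio of the counts of 2 members in the same library (0.5 added to each) against age in months, with 1 point per library (n = 10 per age), the mean as a black bar and the SD as whiskers. The ratio of miR-181c-5p to miR-181a-5p averages -1.69 at 12 months and -2.98 at 13.5 months, and that of miR-181b-5p to miR-181a-5p is highest at 16.5 months, at -2.27.

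Taken as shares of the family's own reads, miR-181a-5p held 62.7% ± 4.58 (SD, n = 10) at 12 months, 74.1% ± 3.20 at 13.5, 64.7% ± 4.60 at 15 and 65.8% ± 5.73 at 16.5 months. The share of miR-181c-5p was 19.8% ± 4.64 at 12 months and 9.78% ± 3.24 at 13.5 months, and then 18.5% ± 6.44 and 14.1% ± 5.82. miR-181b-5p held 10.7% to 10.98% at the first 3 ages and 13.6% ± 1.71 at 16.5 months, and miR-181d-5p held 5.31% to 6.47% throughout. miR-181a-5p therefore held the larger part of the family's counts at every age.

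The 4 members together took 0.282% ± 0.0542 of the counts outside miR-486 at 12 months and 0.581% ± 0.206 at 13.5 months (SD, n = 10). The share was 0.266% ± 0.0291 at 15 months and 0.306% ± 0.028 at 16.5 months. By permutation test, 13.5 months stood above 12 (adjusted p = 0.00012), 15 (adjusted p = 6e-05) and 16.5 months (adjusted p = 6e-05), without overlap from the 2 later ages. The last 2 rest on the smallest p that the 100000 resamples can give (2e-05 before adjustment). The share was also higher at 16.5 than at 15 months by 0.0402 percentage points (permutation test, adjusted p = 0.00954, 9 of 10 libraries). It did not pass at 15 v 12 (adjusted p = 0.418) or at 16.5 v 12 months (adjusted p = 0.296).

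Each hairpin also yields an opposite arm, usually the strand that is discarded, and these sequences differ between loci where the mature ones do not. Those of 3 arms are given because single bases separate them. Capitals mark the bases that differ between miR-181a-1-3p and miR-181a-2-3p and, in miR-181c-3p, those that differ from miR-181a-1-3p.
miR-181a-1-3p: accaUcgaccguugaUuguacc
miR-181a-2-3p: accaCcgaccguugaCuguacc
miR-181c-3p: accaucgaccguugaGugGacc
In positions from the 5′ end, miR-181a-2-3p differed from miR-181a-1-3p by U5C and U16C, and miR-181c-3p by U16G and U19G. Over the 40 libraries miR-181a-1-3p had 504 reads and miR-181a-2-3p had 2. Likewise miR-181b-1-3p had 14 and miR-181b-2-3p had 3. Opposite arm reads of this cluster thus came nearly all from the chromosome 1 hairpins, although how much each hairpin adds to the mature counts was not measured. miR-181c-3p had 876 reads against 13886 of miR-181c-5p, and miR-181d-3p had 50 against 5708 of miR-181d-5p.

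The opposite arm of miR-181a did not follow the mature strand at 13.5 months. miR-181a-1-3p had 3 to 35 reads per library at 12 months (median 15.5), 6 to 12 at 13.5 (median 8), 0 to 19 at 15 (median 6.5) and 1 to 35 at 16.5 months (median 8.5). These are low counts, under 10 reads in 19 of the 40 libraries, and per 100000 counts outside miR-486 the medians were 1.89, 1.08, 2.95 and 1.88. The log2 ratio of miR-181a-1-3p to miR-181a-5p averaged -6.62 ± 0.58 at 12, -8.35 ± 0.65 at 13.5, -5.98 ± 1.18 at 15 and -6.75 ± 0.74 at 16.5 months (SD, n = 10).

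Among 12 such comparisons of arms, chosen after the data had been seen, the 3 that involve 13.5 months and this pair passed. The difference was -1.73 against 12 months (permutation test, adjusted p = 0.00108, 10 of 10 libraries), while 15 and 16.5 months stood above 13.5 by 2.37 (adjusted p = 0.00108) and 1.61 (adjusted p = 0.0012), each in 9 of 10 libraries. In a fit of the 345 microRNAs with more than 1 read in 50% of the libraries, miR-181a-1-3p itself gave -0.68 log2 at 13.5 v 12 months (SE 0.30, adjusted p = 0.121) and 1.40 at 15 v 13.5 months (SE 0.32, adjusted p = 0.000789), where 27% of those microRNAs were called in either direction. So the scaled levels of the 2 strands of miR-181a moved in opposite directions between 13.5 and 15 months, each past the threshold. The raw counts of miR-181a-1-3p hardly moved, with means of 8.4 and 9.0. They were under 10 reads in 7 of 10 libraries at 13.5 and in 6 of 10 at 15 months. For miR-181c the ratio of arms passed in none of the 6 pairs of ages, with differences from -0.085 to 0.30 and adjusted p of at least 0.61.

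**Figure D4:**
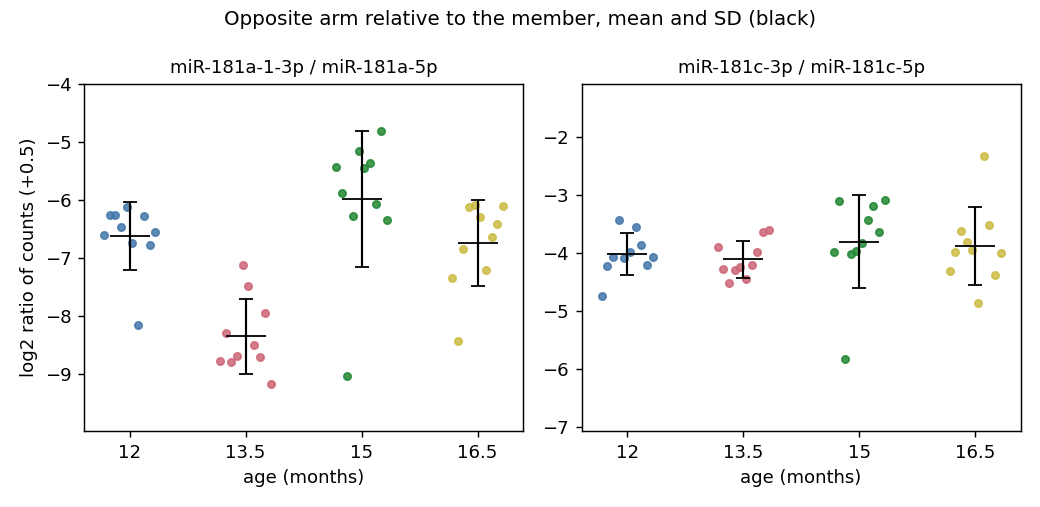
Log2 ratio of the opposite arm to the mature member in the same library (0.5 added to each count) against age in months, for miR-181a (left) and miR-181c (right), with 1 point per library (n = 10 per age), mean and SD in black. The left panel averages -8.35 at 13.5 months and -6.62 at 12 months, and the right panel between -4.11 and -3.81 at the 4 ages.

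Across the 40 libraries, levels of miR-181a-5p, miR-181b-5p and miR-181d-5p moved together, whether or not they share a cluster, and miR-181c-5p moved less with each of them. These correlations describe libraries that share ages and depth, and no test is attached to them. Spearman's rho was 0.85 for miR-181a-5p with miR-181b-5p (0.63 for deviations from the age means), 0.70 for miR-181a-5p with miR-181d-5p (0.34) and 0.70 for miR-181b-5p with miR-181d-5p (0.11). For miR-181c-5p it was 0.25 with miR-181d-5p (0.56), -0.028 with miR-181a-5p (0.018) and -0.26 with miR-181b-5p (-0.31). miR-181c-5p therefore tracked its intron neighbour within ages but not across them.

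Outside the family, the microRNAs most like each member by Spearman's rho of log2 CPM over 40 libraries were chosen by a fixed rule (the 5 highest among 101). For miR-181a-5p these were miR-130a-3p (0.73), miR-130b-3p (0.71), miR-1198-5p (0.61), let-7c-5p (0.58) and miR-378a-3p (0.57). For miR-181b-5p they were miR-130b-3p (0.87), miR-130a-3p (0.79), miR-320-3p (0.70), let-7b-5p (0.66) and let-7d-5p (0.64). miR-181d-5p was likewise led by miR-130a-3p (0.79), followed by miR-103-3p (0.68), miR-15b-5p (0.66), let-7j (0.65) and miR-421-3p (0.65). The 3 members that peaked at 13.5 months thus had miR-130a-3p among their nearest microRNAs. For deviations from the age means its rho was lower, at 0.36 (miR-181a-5p), 0.42 (miR-181b-5p) and 0.52 (miR-181d-5p). Within single ages it ranged from -0.28 to 0.68, from -0.26 to 0.47 and from 0.39 to 0.64 in the same order.

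miR-181c-5p had other neighbours, namely miR-29a-3p (0.86), miR-451a (0.85), miR-21a-5p (0.71), miR-30e-5p (0.68) and miR-24-3p (0.67). miR-451a is a red cell microRNA matured by Ago2 without Dicer, and miR-21a-5p is abundant in myeloid cells. For each of the 4 members, 2 of the 5 names were also among the 5 nearest when library totals replaced the TMM factors, so the order depends on the scale. For miR-181c-5p, miR-29a-3p stayed number 1 with library totals, whereas miR-451a was number 6. Within an age, rho of miR-181c-5p with miR-29a-3p was 0.92 at 12, 0.77 at 13.5, 0.87 at 15 and 0.93 at 16.5 months.

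The likeness of miR-181c-5p to miR-451a was present at each age. Within an age rho was 0.82 at 12, 0.84 at 13.5, 0.84 at 15 and 0.93 at 16.5 months (10 libraries each), and for deviations from the age means over 40 libraries it was 0.91. For the other members over the 40 libraries rho with miR-451a was -0.45 (miR-181a-5p), -0.60 (miR-181b-5p) and -0.070 (miR-181d-5p). Both were also set against depth, and the values differed between ages. At 16.5 months rho of the level with the total outside miR-486 was 0.98 for miR-181c-5p and also 0.98 for miR-451a. It was 0.53 and 0.54 at 15, -0.66 and -0.59 at 13.5 and -0.13 and -0.018 at 12 months. The part of depth in this likeness was not tested.

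**Figure D5:**
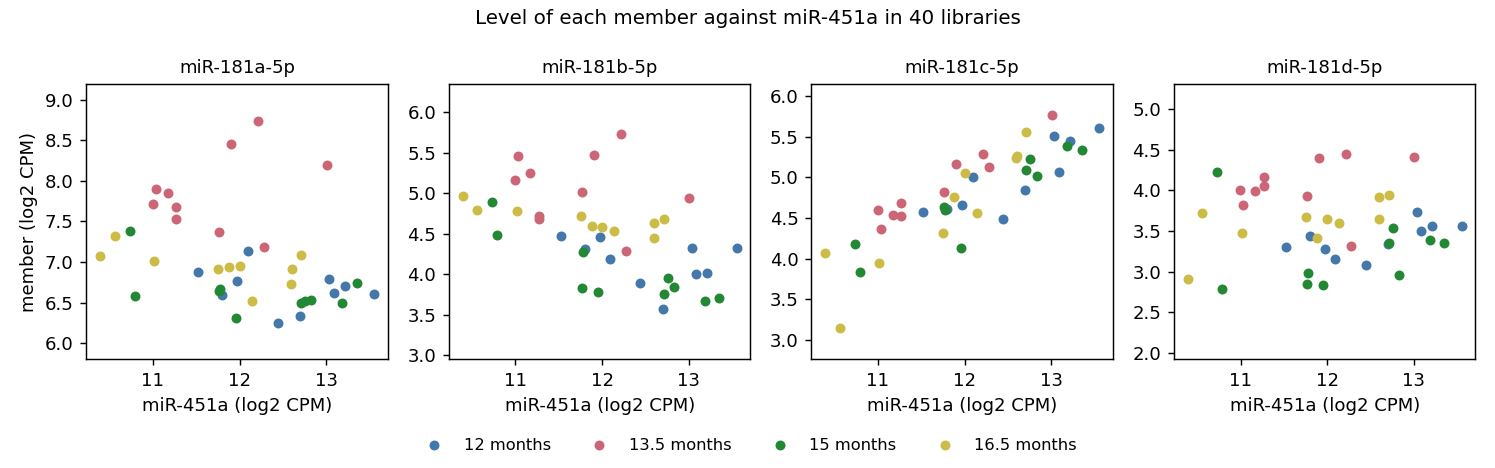
Level of each member against that of miR-451a (both log2 CPM, TMM factors) in 40 libraries, with 1 point per library coloured by age. The panels span the same number of log2 units on the vertical axis. The points of miR-181c-5p rise with miR-451a at every age (rho 0.85 over 40 libraries), whereas those of miR-181b-5p run the other way (-0.60).

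microRNAs that mark blood cell types were read beside these results, and their part in them was not tested. Of the lymphoid list (miR-150-5p, miR-342-3p and miR-155-5p) 2 of 3 passed the filter, and at 13.5 v 12 months miR-150-5p (adjusted p = 0.0742) and miR-342-3p (adjusted p = 0.138) missed the threshold, with a median log2 fold change of 0.53 against 0.0076 for all tested. At 16.5 v 12 months both were called higher (median 0.98, against -0.032), at the age where miR-181b-5p was higher as well. Of the myeloid list 3 of 5 passed and 1 was lower at 13.5 v 12 months (median -0.54). Of the erythroid list 6 of 7 passed and 2 were lower there (median -0.16). In edgeR's quasi-likelihood test these were miR-144-5p at -1.60 log2 (SE 0.29, adjusted p = 3.01e-05) and miR-451a at -0.84 log2 (SE 0.33, adjusted p = 0.0495). The rest were not called, with -0.30 for miR-486a-3p, -0.0091 for miR-486a-5p and 0.054 for miR-16-5p. Only miR-451a of this list was among the 5 microRNAs nearest to miR-181c-5p.

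On the scale of summed CPM of library totals, the lymphoid list ranged from 148 to 467 at 12 months, 212 to 769 at 13.5, 78.0 to 289 at 15 and 167 to 976 at 16.5 months. The erythroid list ranged from 481142 to 498281 over all ages and was the largest of the lists in every library. The myeloid list ranged from 484 to 5847. None of the defining markers of these 3 lists was at 0 in all libraries.

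Markers of platelets and endothelium, liver and muscle were low. The platelet and endothelial list summed to at most 7.13 CPM and the liver marker miR-122-5p to at most 0.155 CPM, and 0 of these passed the filter. The muscle markers miR-1a-3p and miR-206-3p were at 0 in all libraries, and the list summed to at most 12.5 CPM. Of the 3 brain markers only miR-128-3p passed the filter, and it was not called in any pair of ages. Its mean counts by age ran from 763 to 2590, whereas miR-124-3p averaged at most 0.2 reads and miR-9-5p at most 1.5. The list, at 41.3 to 405 CPM, thus stood for miR-128-3p nearly alone and was not low.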

How the data were processed

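The members, marker lists and tests were chosen with earlier results of these data known. Blood was sequenced as small RNA in 40 libraries, 10 at each of 4 ages, which were grouped by the age in the labels. The columns name the age but not the replicate numbers of the labels, so a library is 1 unnumbered sample of its age. The authors trimmed the reads, checked them with FastQC (version 0.11.5 per the submitters' processing notes) and mapped them to mm10 with miRDeep2. To quantify known microRNAs, reads were mapped to miRBase precursors without mismatches. The raw counts of each miRBase microRNA were deposited, with loci of the same mature sequence summed. A second, normalized table was not used. Totals outside miR-486 were smallest at 15 months, where counting error weighs most. Reads carry no molecular identifiers and are not independent molecules.

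Of 1915 microRNAs, those with more than 100 reads in at least 20 libraries (105) were tested on the deposited counts with edgeR 4.0.16 in R 4.3.3 (TMM factors, glmQLFit and glmQLFTest, all ages in 1 model), over age and in 6 contrasts, with Benjamini-Hochberg adjustment over the 105. The SE was taken from the F statistic (fold change divided by its root). A prior count of 2 was used for log2 CPM. Opposite arms were tested in a fit with a filter of more than 1 read (345 microRNAs). Log2 ratios (0.5 added) and family shares were compared by two-sided permutation tests (100000 resamples, SciPy 1.17.1), adjusted over 30, 12 or 6 comparisons. On simulated counts with 30 of 105 microRNAs changed by 1 log2, the fit recovered 93.3% at 13.5 v 12 months. No pair of libraries of 1 age agreed within sampling noise.

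The text names the 4 members, the other rows of the same hairpins, the 5 tested microRNAs with the highest Spearman's rho to each member, and marker lists by counts. Alternatives were other scaling factors, filters and tests (DESeq2 1.42.0, limma 3.58.1 with voom), factors of unwanted variation, blocks and pairs by the numbers in column names, and libraries left out. miR-451a was singled out after its values were seen. Sequences come from RefSeq tables and hairpin positions from GENCODE.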

Additional observations from a re-analysis of the deposited data

Results flagged for a closer look

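With 10 libraries in each of 40 groups (levels and ratios by age), 6 values stood farther from the rest than Dixon's limit for 10 samples, and chance gives about 1 in 20 groups. In 1 library of 15 months with 114748 counts outside miR-486, the level was the highest of its age for miR-181a-5p (7.38 log2 CPM, next 6.74) and for miR-181d-5p (4.22, next 3.54), and the log2 ratio of miR-181c-5p to miR-181d-5p was the lowest (-0.050, next 1.05). That library held 28 reads of miR-181c-5p and 29 of miR-181d-5p. In 1 library of 16.5 months with 186076 counts outside miR-486, the level of miR-181d-5p (2.90 log2 CPM, next 3.41, from 19 reads) and the log2 ratio of miR-181d-5p to miR-181b-5p (-2.06, next -1.32) were the lowest. In the shallowest library, of 16.5 months with 93002 such counts, the log2 ratio of miR-181c-5p to miR-181d-5p was the lowest (-0.57, next 0.48, from 12 and 18 reads).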

How the results depend on the processing

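The number of members called over age was 3 of 4 in every setting tried. Apart from leaving out single libraries, the share of all microRNAs called over age ran from 11.1% without a filter to 85.7% with 2 factors of unwanted variation. With library totals alone, 2 members were called at 13.5 v 12 and 4 at 15 v 13.5 months, against 3 in each other setting, and 4 members were called at 15 v 12 months, 0 at 16.5 v 12 and 3 at 16.5 v 15 months. That setting moved the median of all microRNAs by up to -0.84, and of the 105 tested it called 12 (13.5 v 12 months), 73 (15 v 13.5 months), 84 (15 v 12 months), 5 (16.5 v 12 months) and 66 (16.5 v 15 months). Without a filter, 0 members were called at 16.5 v 12 and 1 at 16.5 v 13.5 months. At 16.5 v 15 months, 2 members were called with DESeq2, with limma voom, with 1 or 2 factors of unwanted variation and without the 15-month libraries whose column names carry a B, and 3 with 3 factors, which also gave 2 at 16.5 v 12 months. Leaving out 1 library in turn gave 1 to 3 at 16.5 v 15 months. Of the 105 tested there, DESeq2 called 36, limma voom called 34 and the fit without B libraries called 21. With 1, 2 and 3 factors 47, 42 and 34 were called. At 16.5 v 12 months 3 factors called 35 of 105. Without a filter, 29 of 1016 were called at 16.5 v 12 and 53 of 1016 at 16.5 v 13.5 months. Values near 0 turned sign. For miR-181c-5p at 13.5 v 12 months they were 0.10, 0.13 and 0.13 with 1, 2 and 3 factors. For miR-181a-5p at 15 v 12 months they were 0.026 with median-ratio factors, 0.064 without the miR-486 rows, 0.023 with DESeq2, 0.077 with only the 2 ages in the fit and from -0.13 to 0.084 with 1 library left out. For miR-181c-5p at 15 v 13.5 months they were 0.024 with median-ratio factors, 0.022 with DESeq2 or without B libraries, 0.14 with limma voom, 0.0095 with 2 ages and from -0.18 to 0.11 with 1 library left out. At 16.5 v 15 months they were 0.54 with library totals and 0.011 without the shallowest library (-0.21 to 0.011 with 1 left out). The ratio of miR-181d-5p to miR-181b-5p turned to 0.028 (5 added to counts) and 0.016 (medians) at 15 v 12 and to 0.088 (medians) at 16.5 v 13.5 months, and that of miR-181c-5p to miR-181d-5p to 0.17 (medians) at 15 v 12 months. The cause was not tested. No library fell under 10 counts in any ratio between members. Libraries with the same number in their column names were not alike as a rule (correlation over 0.1 in 24 of 60 pairs, -0.867 to 0.86, and 6 of 40 libraries closest to their own number). Likeness of libraries cannot tell whether a number is an animal. A replicate block on the numbers left 3 members called over age and 3 at 13.5 v 12 months (1.21 for miR-181a-5p) and changed no call of a member. Of the 105 tested, that block called 62.9% over age and 33.3% at 13.5 v 12 months in either direction. Exact paired tests on the numbers (smallest p possible 0.00195) kept 8 of the 11 ratios between members that were called, all 4 called family shares and all 3 called arm ratios. The ratios lost were miR-181b-5p to miR-181a-5p at 16.5 v 12 (0.25, adjusted p = 0.0977), miR-181d-5p to miR-181a-5p at 13.5 v 12 (-0.53, adjusted p = 0.0527) and miR-181c-5p to miR-181d-5p at 15 v 13.5 months (0.69, adjusted p = 0.0521). These blocked and paired tests, the B libraries, the arm tests and leaving out single libraries for ratios and shares, and medians for shares, were added after seeing the data. Depth limits miR-181d-5p and miR-181c-5p most, with as few as 18 and 12 reads in a library.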
